A study of Homo sapiens with 16 samples.

Results

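The comparison described here was the effect of (2S,6S)-hydroxynorketamine ((2S,6S)-HNK) on HMC3 cells that also received estradiol. It took 4 of the 16 RNA-seq libraries of the series, chosen by their labels: 2 from cells given 0.1 nM estradiol (E2) and 400 nM (2S,6S)-HNK for 24 h, called E2+(2S,6S)-HNK, and 2 from cells given 0.1 nM E2 for 24 h, called E2. HMC3 is an established human line labelled as microglial. Before treatment all groups were kept in charcoal-stripped serum and then without serum, so both groups lacked serum and phenol red during exposure and differed in the labels by (2S,6S)-HNK only. The other 12 libraries, 2 per group, were vehicle, (2S,6S)-HNK, (2R,6R)-HNK, ketamine, E2+(2R,6R)-HNK and E2+ketamine, with each drug at 400 nM. All 16 came from 1 cell line, and the labels do not say whether the 2 libraries of a group were separate cultures, so the p-values measure the spread between libraries, which may be technical.

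(2S,6S)-HNK and (2R,6R)-HNK are mirror-image metabolites of ketamine, an anesthetic that also has antidepressant action. E2 is the main circulating estrogen and acts through the nuclear receptors ESR1 and ESR2 and the membrane receptor GPER1. Microglia are the resident immune cells of the brain, and interferon signaling in them runs from receptors through JAK kinases to STAT factors, with SOCS proteins as feedback inhibitors. The study asked which genes ketamine and its metabolites change in these cells and whether E2 alters that response.

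The 4 libraries held 58865355 to 76709236 counts assigned to genes, within the 55300614 to 81646165 of all 16. The 10 most abundant genes took 7.55 to 9.08% of a library. The 2 E2 libraries varied 2.84 times as much as sampling of reads alone would give, and the 2 E2+(2S,6S)-HNK libraries 3.99 times. Of 20 microglia and macrophage markers, 5 had enough counts to be tested, and 8 had at most 3 counts in each of the 4 libraries. PTPRC, the pan-leukocyte phosphatase, and SPI1, the myeloid master factor, had 0 counts in all 4, and the limit that 0 counts allows is 3 counts per library, at most 0.0510 counts per 1000000 (CPM). AIF1 had 0, 0, 4 and 2 counts in E2 and then E2+(2S,6S)-HNK, ITGAM 2, 4, 0 and 5, CX3CR1 2, 0, 4 and 0, P2RY12 0, 2, 4 and 6, and TMEM119 0, 0, 4 and 0. The defining microglial transcripts were thus at or near 0 in both groups. The summed level of the 20 markers was 80.7 to 82.1 CPM in E2 and 115 to 117 CPM in E2+(2S,6S)-HNK. Of the 16 fibroblast and pericyte markers the summed level was 9558 to 9616 CPM in E2 and 8146 to 8414 CPM in E2+(2S,6S)-HNK, with none at 0 in all 4 libraries. The 10 epithelial markers summed to 695 to 702 CPM and 428 to 431 CPM, the 12 neuron markers to 132 to 133 CPM and 81.0 to 85.3 CPM, and the 10 astrocyte markers to 127 to 131 CPM and 176 to 183 CPM. A few abundant members carried these sums. Of the 7 epithelial markers tested 4 rose and 2 fell, KRT8 and KRT18, with a median log2 fold change of 0.61. Of the 4 neuron markers tested, 1 rose, SNAP25, and 1 fell, TUBB3, and of the 7 astrocyte markers 3 rose and 2 fell. Among the 13 fibroblast and pericyte markers tested 1 rose and 7 fell, and among the 5 microglia and macrophage markers 1 rose and 1 fell. The shares to set beside these counts are the 27.3% of all genes tested that rose and the 27.8% that fell, at an adjusted p under 0.05. The part of these marker shifts in the results was not tested.

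Some groups shared levels in a way that the labels do not give. For 27 of the 30 genes with the largest changes described below, the 6 libraries of (2S,6S)-HNK, E2+(2S,6S)-HNK and E2+(2R,6R)-HNK did not overlap with the other 10. This held for 7.51% of all genes tested, but the 30 were chosen for no overlap between E2+(2S,6S)-HNK and E2, which fixes part of the split, so nothing is read from one share beside the other. ID3 was at 7.45 to 10.9 CPM in the 6 and 25.9 to 33.1 CPM in the 10, and KRT7 at 170 to 248 CPM and 406 to 694 CPM. MT1E, SLC30A1 and ASNS were the 3 that overlapped. The libraries labelled (2R,6R)-HNK and E2+(2R,6R)-HNK thus lay on opposite sides for these genes. OAS1, an antiviral enzyme, did not follow the split, at 1.58 and 1.63 CPM in (2R,6R)-HNK, 0.327 and 0.302 CPM in vehicle and 0.416 and 0.419 CPM in E2+(2R,6R)-HNK. Whether libraries were exchanged among the HNK groups was not tested, which bears on each comparison with or without E2 and on that of the enantiomers.

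With E2 present, (2S,6S)-HNK changed the mRNA of 587 of 16004 genes tested, 326 higher and 261 lower. Genes counted as changed had an adjusted p under 0.05 in the edgeR quasi-likelihood test and at least doubled or fell to 0.5 or less, that is, a log2 fold change of 1 or more up or down. The shares were 2.04% of all genes higher and 1.63% lower. Without the limit on size, 4369 genes (27.3%) rose and 4442 (27.8%) fell, together 8811, and the median log2 fold change over all genes was 0.01. The common coefficient of variation between replicate libraries was 2.81%. A pair of libraries against a pair cannot give an exact permutation p below 0.333 for a single gene, so each p-value rests on the model fitted to all 16 libraries.

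**Figure D1:**
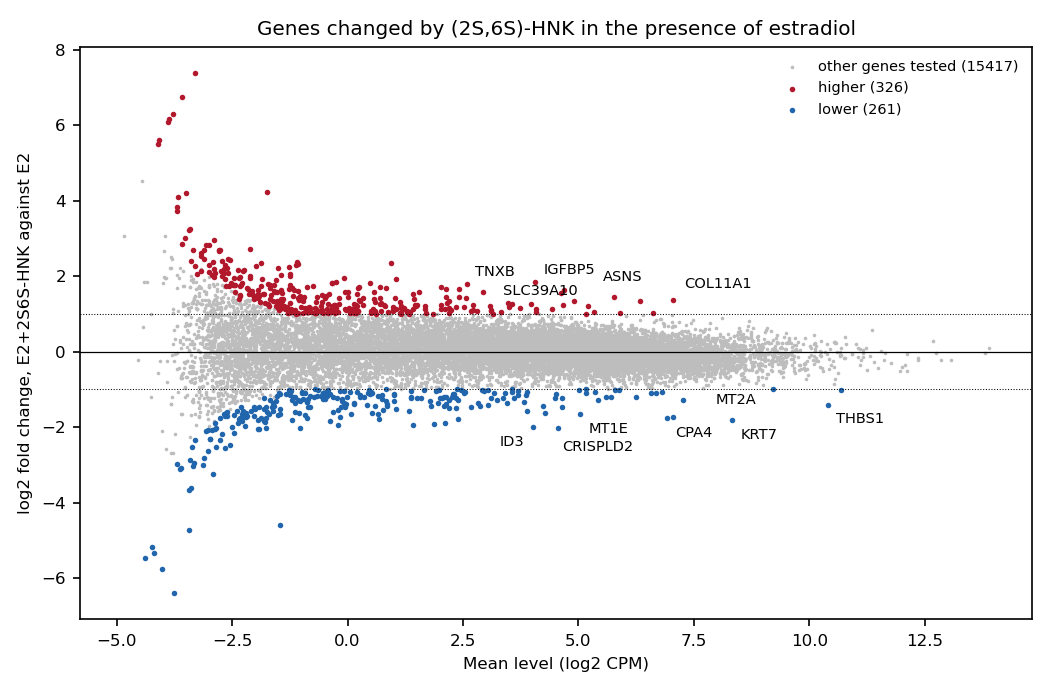
Each point is 1 of the 16004 genes tested, with its mean abundance (log2 CPM) on the horizontal axis and its log2 fold change, E2+(2S,6S)-HNK against E2, on the vertical axis. The 326 genes called higher and the 261 called lower are coloured, and named points are genes described in the text.

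Zinc handling genes held some of the largest falls. Metallothioneins are small cysteine-rich proteins that bind zinc and copper, SLC30A1 exports zinc from the cell, and SLC39A10 imports it. Free zinc acts on the factor MTF1, which binds metal response elements, with the core TGCACNC or TGCGCNC, in the promoters of metallothionein genes and SLC30A1. The 200 bases before the start of transcription are shown for zinc genes with large changes, down for MT2A, MT1X and SLC30A1 and up for SLC39A10 (MT1E and MT1F are named only), taken from RefSeq on GRCh38.p14. Capitals mark a core on either strand, and the genes are MT2A at chr16:56608384-56608583 (+), MT1X at chr16:56682270-56682469 (+), SLC30A1 at chr1:211579162-211579361 (-) and SLC39A10 at chr2:195656758-195656957 (+).
MT2A: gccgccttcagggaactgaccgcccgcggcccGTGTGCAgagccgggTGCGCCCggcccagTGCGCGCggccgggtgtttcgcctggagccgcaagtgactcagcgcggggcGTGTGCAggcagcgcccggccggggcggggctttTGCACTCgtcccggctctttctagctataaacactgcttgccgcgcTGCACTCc
MT1X: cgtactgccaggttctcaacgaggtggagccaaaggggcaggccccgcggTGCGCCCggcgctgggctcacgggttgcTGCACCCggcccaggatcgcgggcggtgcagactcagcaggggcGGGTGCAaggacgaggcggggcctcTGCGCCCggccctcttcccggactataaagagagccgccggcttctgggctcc
SLC30A1: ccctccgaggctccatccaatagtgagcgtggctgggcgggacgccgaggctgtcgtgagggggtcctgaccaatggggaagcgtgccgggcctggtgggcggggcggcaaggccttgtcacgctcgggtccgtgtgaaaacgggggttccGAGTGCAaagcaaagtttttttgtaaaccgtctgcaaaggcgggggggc
SLC39A10: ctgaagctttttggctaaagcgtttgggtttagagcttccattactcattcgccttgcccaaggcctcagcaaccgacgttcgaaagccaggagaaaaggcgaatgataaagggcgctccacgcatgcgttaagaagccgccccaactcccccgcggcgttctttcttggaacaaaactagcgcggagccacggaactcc
The MT2A window held 6 cores, the MT1X window 4, the SLC30A1 window 1, and the SLC39A10 window 0, as did the window of its other start at chr2:195657026-195657225. Among 16323 such windows of 11212 genes tested, 27.2% held at least 1 core, 1.43% at least 3 and 0.104% at least 5. A match is a run of letters and not a shown binding site.

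MT2A (chromosome 16, 56642496 to 56643409 on GRCh37), the most abundant metallothionein mRNA here, stood at 296 and 310 CPM in E2 and at 165 and 161 CPM in E2+(2S,6S)-HNK. It fell by 0.90 on the log2 scale (SE 0.03, adjusted p = 1.3e-30), with the groups far apart. MT1E (chromosome 16, 56659387 to 56661024) went from 59.4 and 57.6 CPM to 19.1 and 17.8 CPM, 3.17-fold lower, with a log2 fold change of -1.66 (SE 0.05, adjusted p = 5.9e-33). MT1X went from 6.36 and 8.11 CPM to 3.29 and 3.31 CPM, a log2 fold change of -1.13 (SE 0.11, adjusted p = 2.6e-12). All 3 were lower in both drug libraries than in either E2 library. MT1F, named after its values were seen, went from 4.20 and 4.15 CPM to 2.44 and 2.33 CPM, with a log2 fold change of -0.80 (adjusted p = 7.7e-07). Metallothionein genes are near-identical copies of one another, so the split of reads between them is uncertain. SLC30A1 (chromosome 1, 211744910 to 211752503) had 9.004 and 7.44 CPM in E2 and 2.32 and 2.11 CPM with the drug, 3.70-fold lower (log2 fold change -1.89, SE 0.12, adjusted p = 1.9e-19). The importer SLC39A10 (chromosome 2, 196440701 to 196602426) moved the other way, from 25.2 and 25.7 CPM to 49.8 and 52.0 CPM, a log2 fold change of 1.001 (SE 0.05, adjusted p = 7.4e-22), which was 0.79 after the correction for GC content described below. Of the 25 metallothionein and zinc transporter genes tested, 9 rose, 8 fell and 8 did not pass, against 27.3% and 27.8% of all genes, and their median log2 fold change was 0.06, near the 0.01 of all genes. The list as a whole did not lean one way. The metallothionein pseudogene MT1L rose by 0.22, the transporters SLC30A5, SLC30A6 and SLC30A9 of the exporter family rose by 0.39, 0.21 and 0.34, of which the last 2 were at -0.014 and 0.11 and did not pass after the GC correction, and of the importer family SLC39A11, SLC39A6, SLC39A9 and SLC39A7 rose by 0.57, 0.39, 0.28 and 0.16 while SLC39A1, SLC39A3 and SLC39A14 fell by 0.45, 0.29 and 0.09.

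**Figure D2:**
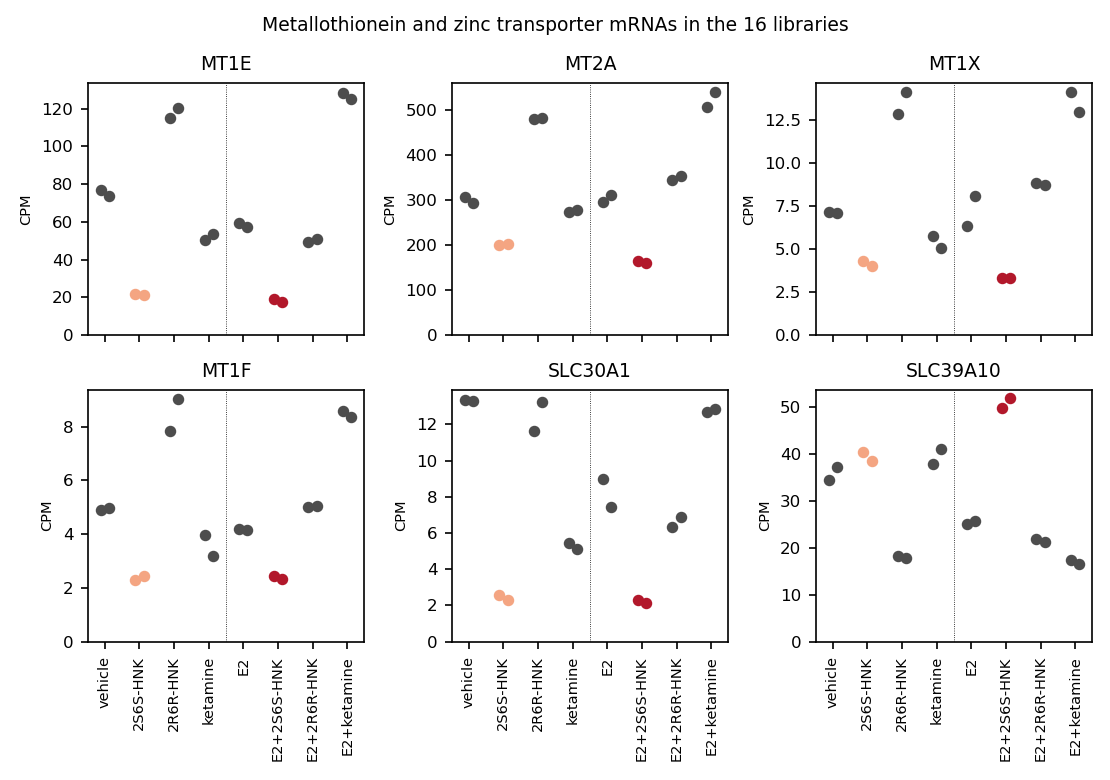
CPM of 4 metallothioneins, the zinc exporter SLC30A1 and the importer SLC39A10 in each of the 16 libraries, 1 point per library, with groups on the horizontal axis and groups without E2 left of the dotted line. MT2A is lowest in the E2+(2S,6S)-HNK libraries, at 161 and 165 CPM, and highest in the E2+ketamine libraries, at 505 and 540 CPM.

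The 15 largest rises were of 1.28 to 1.84 on the log2 scale. IGFBP5 (chromosome 2, 217536828 to 217560272), a secreted protein that binds insulin-like growth factors, had 9.82 and 7.85 CPM in E2 and 33.1 and 30.2 CPM in E2+(2S,6S)-HNK. It was 3.58-fold higher, with a log2 fold change of 1.84 (SE 0.08, adjusted p = 7.8e-25), the largest rise among genes that averaged 5 CPM or more and whose groups did not overlap. SEMA5A (chromosome 5, 9035145 to 9546187), a semaphorin guidance protein, went from 15.4 and 14.1 CPM to 45.6 and 45.3 CPM, a log2 fold change of 1.62 (SE 0.06, adjusted p = 1.0e-28). KIRREL3 (chromosome 11, 126293253 to 126873355), an adhesion molecule of the immunoglobulin superfamily, went from 33.9 and 32.6 CPM to 92.6 and 87.3 CPM, a log2 fold change of 1.44 (SE 0.04, adjusted p = 1.6e-31). In each of these the lowest drug library lay above the highest E2 library by more than 2 times. COL11A1 (chromosome 1, 103342023 to 103574428), a fibrillar collagen chain, went from 86.1 and 80.0 CPM to 212 and 213 CPM, a log2 fold change of 1.36 (SE 0.03, adjusted p = 8.3e-35). ASNS (chromosome 7, 97480989 to 97501854), asparagine synthetase, went from 51.3 and 50.5 CPM to 126 and 130 CPM, a log2 fold change of 1.33 (SE 0.04, adjusted p = 1.8e-33). MIR100HG, a long noncoding host transcript of microRNAs, went from 14.4 and 14.3 CPM to 40.0 and 43.4 CPM (log2 fold change 1.54, adjusted p = 2.4e-26). These 3 also had no overlap between groups, which the rule that chose them required. The other rises of the 15 largest were in the matrix glycoprotein gene TNXB (1.79), the potassium channel beta subunit KCNAB2 (1.67), the glutamate transporter SLC1A1 (1.66), DNHD1 (1.57), the serine protease HTRA1 (1.44), FBLN7 (1.42), the kinase CDK18 (1.34), POU6F1 (1.33) and EXD3 (1.28), all as log2 fold changes. TNXB ends over CYP21A2 on the other strand. The counting is not stated to use strand, and of 149 genes named here 74 share exon bases with another annotated gene, 50 of them on the other strand, so reads of such pairs cannot be told apart.

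Among the largest falls were those of CRISPLD2, ID3, ID1, KRT7, KRT80 and CPA4. CRISPLD2 (chromosome 16, 84853591 to 84954374), a secreted protein, went from 47.5 and 47.4 CPM in E2 to 12.3 and 10.96 CPM in E2+(2S,6S)-HNK, 4.06-fold lower, with a log2 fold change of -2.02 (SE 0.06, adjusted p = 6.1e-33). ID3 (chromosome 1, 23884417 to 23885992), an inhibitor of basic helix-loop-helix factors induced by BMP signaling, went from 33.1 and 32.3 CPM to 8.71 and 7.45 CPM, 4.02-fold lower (log2 fold change -2.01, SE 0.07, adjusted p = 8.4e-30). Its relative ID1 (chromosome 20, 30193086 to 30194318) went from 10.5 and 9.005 CPM to 2.94 and 2.69 CPM, a log2 fold change of -1.78 (SE 0.12, adjusted p = 5.0e-18). Neither drug library reached the lower E2 library for any of the 3, which the rule that chose them required. KRT7 (chromosome 12, 52626304 to 52645970), a keratin of simple epithelia, was abundant and went from 605 and 607 CPM to 173 and 170 CPM, with a log2 fold change of -1.82 (SE 0.03, adjusted p = 1.8e-44). KRT80 (chromosome 12, 52562780 to 52585798) went from 241 and 239 CPM to 71.4 and 73.0 CPM (log2 fold change -1.73, adjusted p = 4.1e-41). KRT18 and KRT8, partner keratins whose exons overlap on opposite strands, fell by 0.83 and 0.74. Both are epithelial markers, of which 4 of 7 tested rose and 2 fell, with a median of 0.61. CPA4 (chromosome 7, 129932974 to 129964020), a secreted carboxypeptidase, went from 222 and 221 CPM to 65.2 and 65.3 CPM, a log2 fold change of -1.76 (SE 0.03, adjusted p = 4.1e-41). Its list did not follow it, since of 14 carboxypeptidases tested 7 rose and 4 fell, against 27.3% and 27.8% of all genes, with a median of 0.18. The remaining falls among the 15 largest, apart from SLC30A1 and MT1E, were ABTB2 (-1.63), PLEKHG4 (-1.57), the protease ADAMTS16 (-1.50), the vitamin D 24-hydroxylase CYP24A1 (-1.49), the actin-associated SYNPO (-1.48), the sulfate transporter SLC26A1 (-1.46) and the Notch-modifying LFNG (-1.45), as log2 fold changes. All 30 kept their direction and stayed changed after the correction for GC content described below.

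**Figure D3:**
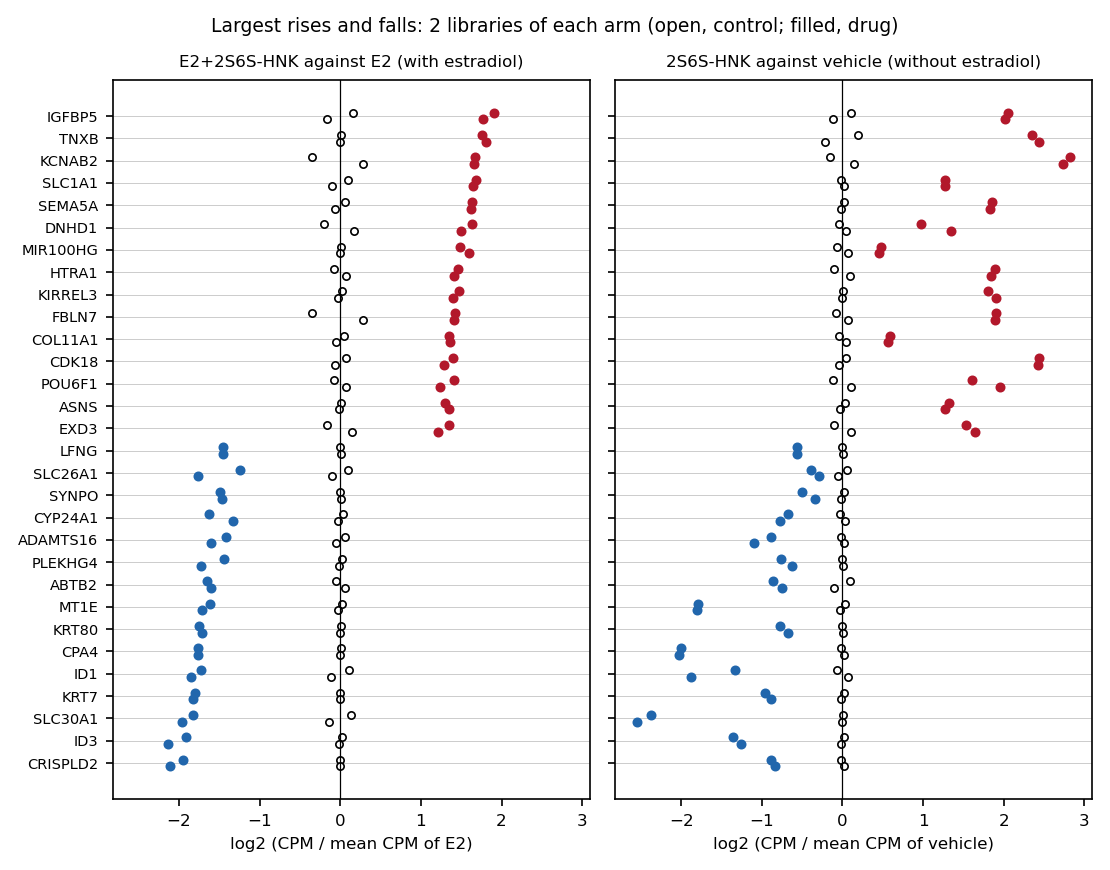
Level of the 15 largest rises and 15 largest falls in single libraries, as log2 of CPM over the mean CPM of the control group, with E2 (left) and without E2 (right). Open points are control libraries and filled points are (2S,6S)-HNK libraries, and in the left panel no filled point overlaps an open one.

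Immediate early factors, which are transcribed within minutes of growth factor or stress signals, mostly fell. Of 29 tested, 20 fell, 1 rose and 8 did not pass, against 27.8% and 27.3% of all genes, and the median log2 fold change was -0.33. FOSL1, an AP-1 subunit, went from 164 and 162 CPM to 95.4 and 93.0 CPM (log2 fold change -0.79, adjusted p = 6.4e-27). IER3 fell by 0.71 and SRF, the serum response factor, by 0.54 on the log2 scale. KLF2, a flow-responsive Kruppel-like factor, fell by 1.36, from 17.4 and 17.6 CPM to 7.52 and 6.06 CPM. EGR1 was the exception, at 36.99 and 35.8 CPM in E2 and 54.1 and 54.1 CPM with the drug, a rise of 0.57. After the GC correction 17 of the 29 were lower and 4 higher, against 26.6% and 24.9% of all genes.

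Of 29 targets of YAP and genes of the contractile cytoskeleton, 17 fell and 8 rose, against 27.8% and 27.3% of all genes, with the share that rose near that of all genes and a median log2 fold change of -0.09. THBS1 (chromosome 15, 39873280 to 39891667), thrombospondin 1, was abundant, at 2214 and 2185 CPM in E2 and 836 and 821 CPM in E2+(2S,6S)-HNK. It was 2.65-fold lower (log2 fold change -1.41, SE 0.02, adjusted p = 7.1e-46). TGFBI, a secreted matrix protein, went from 383 and 381 CPM to 208 and 205 CPM (log2 fold change -0.89), and AJUBA fell by 0.77. After the GC correction 13 of the 29 were lower and 12 higher, so the lean of the list was lost while THBS1 stayed at -1.47. Of 37 collagens and fibril matrix genes, 17 rose and 13 fell, against 27.3% and 27.8% of all genes, shares that also apply to the proteases below. By p, the leading rises were COL11A1, P4HA1, a prolyl hydroxylase that matures collagen (0.96), and COL8A1 (0.62), and TNC, tenascin C, fell by 0.97, from 290 and 288 CPM to 149 and 145 CPM. Of 17 matrix metalloproteinases, TIMP inhibitors and proteases of the ADAM and ADAMTS families, 10 fell and 1 rose, which was ADAM17 (0.42). The inhibitor TIMP2 was at 962 and 948 CPM in E2 and 704 and 697 CPM with the drug. After the GC correction 7 of the 17 were lower and 2 higher, against 26.6% and 24.9% of all genes.

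Genes of the NRF2 antioxidant response, which NRF2 switches on when KEAP1 releases it, fell in 16 of 26 cases and rose in 3, with a median of -0.27. As counted, 27.8% of all genes fell and 27.3% rose, the shares to set beside this list and the chaperone, tubulin and histone lists that follow. FTL, ferritin light chain, went from 1903 and 1919 CPM to 1312 and 1281 CPM, a log2 fold change of -0.56 (adjusted p = 1.0e-28). NQO1, a quinone reductase, went from 100 and 98.6 CPM to 56.9 and 59.6 CPM (log2 fold change -0.77), the pentose phosphate enzyme TKT fell by 0.45, and KEAP1 itself fell by 0.64. The 34 heat shock proteins and chaperones included 17 that fell and 8 that rose, and the smallest p were those of HSPB1 (-0.53), CCT3 (-0.38) and FKBP4 (-0.43). After the GC correction 22 of them were lower and 3 higher, against the 26.6% and 24.9% of all genes. Tubulins fell in 12 of 16 cases, TUBB from 4887 and 4890 CPM to 3840 and 3800 CPM (log2 fold change -0.36), TUBA1C by 0.51, TUBB4B by 0.45 and the neuronal isotype TUBB3 by 0.81. Among 37 clustered and variant histone genes, 16 fell, 2 rose and 19 did not pass. H2AFX fell by 0.72, HIST1H2BK by 0.44 and H2AFZ by 0.33, while the linker histone HIST1H1C rose by 0.38.

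Genes of the integrated stress response, in which ATF4 raises amino acid synthesis and import, were divided. Of 31 tested, 15 rose and 11 fell, against 27.3% and 27.8% of all genes, shares that also apply to the clock and ribosomal lists below. ASNS and MTHFD2, a mitochondrial folate enzyme (0.60), rose, whereas the linked subunits of a large neutral amino acid transporter fell, SLC7A5 from 833 and 838 CPM to 425 and 410 CPM (log2 fold change -1.001, adjusted p = 2.1e-36) and SLC3A2 by 0.74. Of 26 cholesterol genes, 15 rose and 8 fell, against 27.3% and 27.8% of all genes, with a median of 0.15. INSIG1, an endoplasmic reticulum protein that restrains sterol synthesis and is itself induced when sterol is low, went from 312 and 311 CPM to 543 and 555 CPM (log2 fold change 0.82, adjusted p = 1.9e-32). HMGCS1 (0.75) and MSMO1 (0.79), enzymes of the synthesis pathway, rose with it. Of 22 circadian clock genes, 9 rose, 0 fell and 13 did not pass, and the median was 0.19. The repressors CRY1 (0.57) and PER3 (0.83), the output factor TEF (0.65) and NR1D2 (0.51) were the leading members. Cytosolic ribosomal protein genes rose in 43 of 68 cases and fell in 18, with a small median of 0.11, RPS24 from 438 and 432 CPM to 656 and 676 CPM (0.61), RPS6 by 0.44 and RPL31 by 0.43. With the GC correction 45 of the 68 were higher and 10 lower, against 24.9% and 26.6% of all genes.

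**Figure D4:**
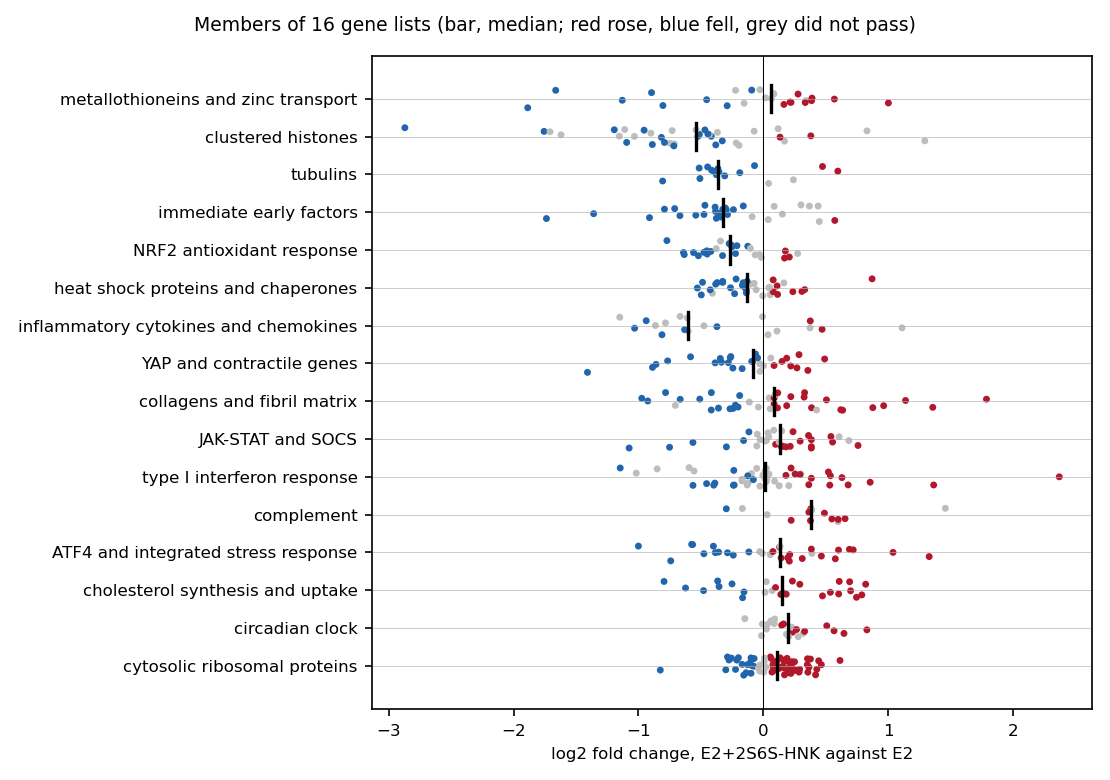
Log2 fold change, E2+(2S,6S)-HNK against E2, of each tested member of 16 gene lists, 1 point per gene, with the median of each list as a bar and points coloured by whether the gene rose, fell or did not pass. The immediate early factors lie mostly left of 0, with 20 of 29 lower, and the clock genes to the right, with 9 of 22 higher and 0 lower.

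Genes of interferon signaling, which the study names, showed no common direction in this comparison. Of 47 type I interferon response genes, 14 rose, 10 fell and 23 did not pass, against 27.3% and 27.8% of all genes, with a median of 0.01, the same as all genes. Among the members with the smallest p were IRF1, a factor induced by interferon gamma, which went from 21.5 and 22.0 CPM to 10.0 and 9.58 CPM (log2 fold change -1.15, SE 0.07, adjusted p = 1.3e-19), the ubiquitin ligase TRIM25 (-0.45) and the RNA editor ADAR (-0.23). MX1, MX2, OAS1 and OAS2, antiviral effectors, had low counts. MX1 had 142 and 78 counts in E2 and 165 and 138 counts in E2+(2S,6S)-HNK, with a log2 difference of 0.20 (95% interval -0.23 to 0.64, adjusted p = 0.38). MX2 had 24, 52, 31 and 31 counts (-0.56, interval -1.37 to 0.26), OAS1 42, 31, 56 and 33 counts (0.01, -0.68 to 0.71) and OAS2 14, 17, 4 and 16 counts (-0.85, -2.27 to 0.57). None of these 4 passed, and the intervals leave room for changes of either sign. The result of 3 of them changed with 1 library: without E2 replicate 1, MX1 stood at 0.65 (adjusted p = 0.015) and MX2 at -1.04 (adjusted p = 0.019), and without E2+(2S,6S)-HNK replicate 2, OAS2 at -2.34 (adjusted p = 0.027). IRF9, a partner of STAT factors, stood at 21.9 and 22.5 CPM against 22.8 and 22.5 CPM, a log2 difference of 0.03 (interval -0.11 to 0.17), and it passed at 0.14 after the GC correction. IRF7, which drives interferon production, went from 46.5 and 49.7 CPM to 37.3 and 35.6 CPM and fell by 0.40.

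Of 32 JAK-STAT and SOCS genes, 14 rose and 6 fell, against 27.3% and 27.8% of all genes, with a median of 0.14, and after the GC correction 11 were higher and 6 lower. STAT3 stood at 152 and 150 CPM in E2 and 162 and 161 CPM with the drug, a rise of 0.10 (interval 0.03 to 0.16, adjusted p = 0.0032) in which the groups did not overlap. JAK1 did not pass (0.02, interval -0.05 to 0.10), JAK3 rose by 0.76 from 3.40 and 3.41 CPM, and JAK2 rose by 0.36 (adjusted p = 0.0045) but was at 0.14 and did not pass after the GC correction. The receptor OSMR rose by 0.54 and STAT6 fell by 0.56. Of the SOCS inhibitors tested, SOCS1 and SOCS3 fell, SOCS7 rose by 0.55, and SOCS2, SOCS5, SOCS6 and CISH did not pass, with SOCS6 at -0.28 and passing after the GC correction. SOCS4 was at 0.14 as counted and passed, at -0.11 and passed after the GC correction, and did not pass without E2+(2S,6S)-HNK replicate 2 (0.11) or without E2 replicate 1 (0.10), so its direction was not settled. SOCS3 went from 63.0 and 64.6 CPM to 39.2 and 36.6 CPM (-0.75, adjusted p = 1.7e-20), and SOCS1, at under 2 CPM throughout, fell by 1.07 (adjusted p = 7.9e-04), a fall that did not pass without E2 replicate 2 (-0.68, adjusted p = 0.090). Among 19 inflammatory cytokines, chemokines and related genes, 5 fell, a share near that of all genes, 2 rose and 12 did not pass. NFKBIA, among the falls (-0.37), and TNFAIP3, among the rises (0.38), are neither cytokines nor chemokines. LIF, which signals through STAT3, went from 85.0 and 82.6 CPM to 41.3 and 40.6 CPM (log2 fold change -1.03, adjusted p = 2.8e-27), IL11 of the same family fell by 0.94 and TGFB1 by 0.81, while TGFB2 rose by 0.47. Complement genes rose in 8 of 14 cases with 1 lower, against the same shares of all genes, among them the membrane regulators CD46 (0.38) and CD59 (0.22), and C1R (0.49) and C1RL (0.55), whose exons overlap each other on the same strand.

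The other genes the study names were spread on both sides of 0. Of 21 SIN3 corepressor genes, 8 rose and 5 fell, against 27.3% and 27.8% of all genes. SIN3A did not pass, at 84.1 and 82.7 CPM against 83.8 and 82.7 CPM, and was at -0.09 and passed after the GC correction, while its partner BRMS1 fell by 1.07, from 164 and 159 CPM to 77.0 and 76.5 CPM, and SUDS3 rose by 0.60. EEF2, the elongation factor, fell by 0.07 as counted, and was at 0.11, a rise, after the GC correction, so its direction was not settled. BDNF rose by 0.20 (adjusted p = 0.0021), but did not pass without E2+(2S,6S)-HNK replicate 1 (0.15, adjusted p = 0.070) or without E2 replicate 1 (0.16, adjusted p = 0.053). The postsynaptic scaffold DLG4 rose by 0.47 and the kainate receptor GRIK4 by 0.61, from 2.61 and 2.34 CPM to 3.55 and 4.04 CPM. SYN1, under 1.2 CPM in all 4 libraries, did not pass. Of the estrogen receptors, ESR1 had 0 counts in all 4 libraries. ESR2 had 37 and 28 counts in E2 and 46 and 19 counts with the drug and did not pass (-0.29, interval -1.27 to 0.69). GPER1 had 84 and 92 counts against 57 and 36, and fell by 1.19 (SE 0.26, adjusted p = 1.3e-04). Of 28 estrogen receptors and estrogen-induced genes, 6 rose and 8 fell, shares near the 27.3% and 27.8% of all genes, with a median of 0.03, and the smallest p were those of IGFBP4 (-0.69) and the protease CTSD (-0.40).

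Fold changes varied with the base composition of the genes. Across the 15363 genes with a known GC content, which are not independent replicates, the Spearman rank correlation between log2 fold change and GC content was -0.35. The median log2 fold change was 0.21 in genes of the lowest GC content (the first of 5 bins of equal size) and -0.19 in those of the highest. In (2S,6S)-HNK against vehicle the trend had the opposite sign and was steeper (rank correlation 0.65), with medians of -0.61 and 0.48. Correcting every library by loess for base composition and exon length brought the rank correlation to 0.02 and left 353 genes higher and 229 lower, with 270 and 207 of them also called in the same direction without it. Called genes higher had a median GC content of 50.3% and those lower 56.2%, against 48.7% of all genes, and after the correction the order was the opposite, with 55.4% for those higher and 52.3% for those lower. The part of library composition in these shifts was not tested, and the correction would also remove a true response that happened to track base composition.

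**Figure D5:**
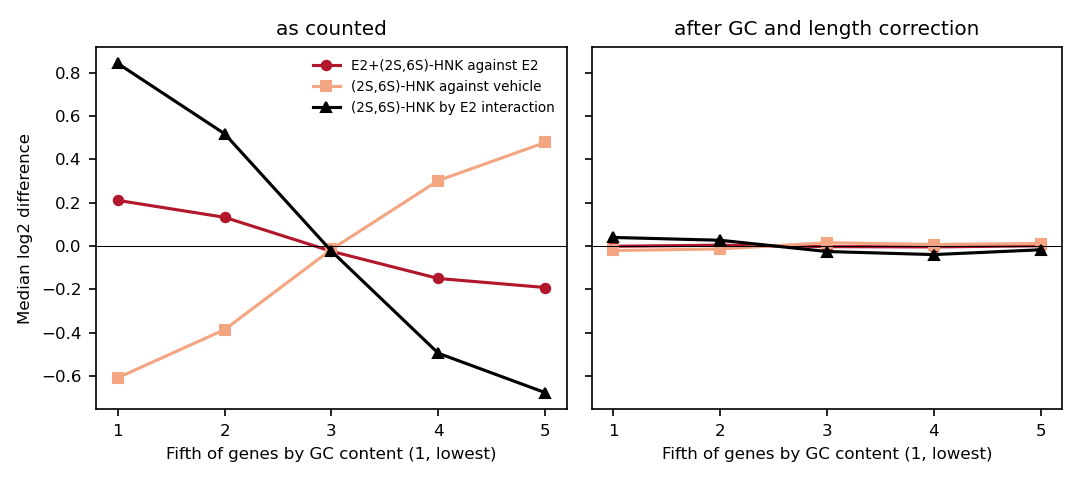
Median log2 difference in 5 bins of genes by GC content, as counted (left) and after the GC and length correction (right), for (2S,6S)-HNK with E2, without E2 and for the difference between them. As counted, the effect with E2 runs from 0.21 at the lowest GC content to -0.19 at the highest, and without E2 from -0.61 to 0.48.

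To ask whether E2 altered the response, the same drug contrast was made without E2, on 4 libraries shared with neither group above. (2S,6S)-HNK against vehicle changed 1453 genes (9.08%), 838 higher and 615 lower, and after the GC correction 554 higher and 221 lower. Changed with and without E2 were 212 genes, 36.1% of the genes changed with E2 and 14.6% of those changed without. Of the 212, 147 were higher in both, 56 lower in both and 9 opposite. All 30 of the largest changes with E2 passed in the same direction without E2, and 18 were also past the size limit. By the adjusted p alone, 10862 of the 16004 genes passed without E2, 5136 higher and 5726 lower. IGFBP5 was at 8.88 and 7.60 CPM in vehicle and 34.2 and 33.3 CPM in (2S,6S)-HNK, and CPA4 at 282 and 290 CPM against 71.4 and 70.2 CPM. MT1E was at 77.0 and 73.6 CPM against 21.8 and 21.5 CPM, so its level was like that with E2 in both drug groups.

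The difference between both effects, tested as an interaction, was called for 1714 genes (10.7%), 1240 above and 474 below, but for 127 above and 158 below after the GC correction, and 176 genes were called in both fits. Of the 587 genes changed with E2, 120 (20.4%) were among the 1714 called as counted. Of the genes lower with E2, 70 had a called interaction below 0 and 1 above 0. Of those higher with E2, 37 had it above 0 and 12 below 0. The effect with E2 is part of the interaction, so the choice of these genes fixes part of this split. By the adjusted p alone, 22 of the 47 interferon genes were below 0 and 13 above as counted, against 32.2% and 32.9% of all genes, and 24 below and 3 above after the correction, against 20.2% and 19.0%. Other lists leaned after the correction too. Of 34 heat shock proteins and chaperones, 4 were below 0 and 23 above, and of 16 tubulins, 10 were below and 0 above. MX1 was at 1.41 and 1.85 CPM in vehicle and 4.01 and 4.70 CPM in (2S,6S)-HNK, a rise of 1.42. With E2 its log2 difference of 0.20 did not pass, but it was larger without E2 replicate 1, as given above. The interaction of MX1 was -1.22 (SE 0.26, adjusted p = 5.1e-05), and -1.12 after correction. OAS1 had an interaction of -1.70 (-2.25 after correction), MX2 of -1.93 (-1.87), IRF9 of -0.87 (-0.56), IRF1 of -0.98 (-0.75), C1R of -0.92 (-0.53) and STAT3 of -0.41 (-0.40). IRF7 moved from -1.06 to -0.34. MX1, MX2 and OAS1 were past the size limit in both fits, IRF7 as counted only, and IRF9, IRF1, C1R and STAT3 in neither. The largest interactions among genes of at least 5 CPM kept their sign but came under the size limit. LINC01111 had an interaction of 1.70 and 0.72 after correction, CCDC58 1.59 and 0.68, PSMC6 1.57 and 0.74, TWISTNB 1.54 and 0.66, and P4HA1 1.53 and 0.79. Below 0, ZNF469 had -1.41 and -0.64, CLIC3 -1.41 and -0.77, GPRC5C -1.39 and -0.74, SNAI1 -1.37 and -0.83, and CYGB -1.36 and -0.78. For MT1E the interaction was 0.14 (adjusted p = 0.067), and 0.64 and passing after the correction. ID3 was at 26.4 and 25.9 CPM in vehicle and 10.2 and 10.9 CPM in (2S,6S)-HNK, and its interaction of -0.70 was -0.24 after correction.

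The other drugs under E2 were compared with (2S,6S)-HNK at the same dose and time, as 2 pairs, each with p-values adjusted over all genes. The first set (2S,6S)-HNK against its mirror image (2R,6R)-HNK, which differs at the stereocentres only. It called 106 genes (0.662%), 58 higher and 48 lower with (2S,6S)-HNK, and 35 higher and 13 lower after the GC correction. The comparison had a GC trend of its own (rank correlation -0.67). Of the 30 genes with the largest response to (2S,6S)-HNK, 2 were called here, MT1E and SLC30A1, and 14 did not pass. By the adjusted p alone, 8647 of the 16004 genes passed in this pair. The choice of the 30 used the E2+(2S,6S)-HNK libraries, which this pair also uses, so nothing is read from how many passed. For IGFBP5, at 35.1 and 35.4 CPM in E2+(2R,6R)-HNK, the log2 difference was -0.15 (95% interval -0.31 to 0.01). For SEMA5A it was -0.03 (-0.15 to 0.09), for ASNS 0.05 (-0.03 to 0.13) and for THBS1 -0.01 (-0.05 to 0.04), intervals that hold only small differences next to the responses above. ID3 was at 9.35 and 9.29 CPM in E2+(2R,6R)-HNK, a difference of -0.20 (-0.37 to -0.02). Without E2, (2R,6R)-HNK had 31.9 and 30.0 CPM of ID3 and 6.43 and 7.59 CPM of IGFBP5, on the side of vehicle, the split of groups given above.

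Of the 25 metallothionein and zinc transporter genes tested, 7 were called between the enantiomers, 1 higher and 6 lower with (2S,6S)-HNK, against 0.662% of all genes, and 3 after the GC correction (MT1E, MT1X and SLC30A1). SLC39A10, MT1E, MT1X and MT2A were the only genes among the 106 that averaged 5 CPM or more and had no overlap between groups. MT2A was at 344 and 353 CPM in E2+(2R,6R)-HNK, above the 165 and 161 CPM of E2+(2S,6S)-HNK, a log2 difference of -1.10 (interval -1.16 to -1.03, adjusted p = 2.4e-33). MT1E was at 49.4 and 50.8 CPM, a difference of -1.44 (-1.55 to -1.33), and MT1X at 8.81 and 8.73 CPM, a difference of -1.41 (-1.66 to -1.16). SLC30A1 was at 6.35 and 6.90 CPM (-1.57, -1.84 to -1.30) and SLC39A10 at 21.9 and 21.3 CPM (1.23, 1.11 to 1.36). After the GC correction these differences were -0.97 for MT2A, -1.24 for MT1E, -1.26 for MT1X, -1.83 for SLC30A1 and 0.94 for SLC39A10, so MT2A and SLC39A10 came under the size limit. The levels of E2+(2R,6R)-HNK thus lay nearer to E2 than to E2+(2S,6S)-HNK for each of the 5.

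Against E2+ketamine, the second pair, 899 genes (5.62%) differed, 476 higher and 423 lower with (2S,6S)-HNK, and 452 and 227 after the GC correction. All 30 of the largest responses passed with the same sign and 24 were past the size limit. By the adjusted p alone, 10689 of the 16004 genes passed. The 30 were chosen for their values in the E2+(2S,6S)-HNK libraries, which this pair also uses, so nothing is read from the shared sign. Among genes that averaged 5 CPM or more and whose groups did not overlap, the largest differences upward were in LEPR (1.87), SEMA5A (1.80), MIR100HG (1.70), COL11A1 (1.61) and SLC39A10 (1.58), and downward in MT1E (-2.78), SLC30A1 (-2.52), MT1X (-2.04), KRT7 (-1.97) and CDKN1C (-1.84). LEPR, the leptin receptor gene, shares exon bases with LEPROT on the same strand. MT1E was at 128 and 125 CPM in E2+ketamine, above E2, and KRT7 at 653 and 694 CPM. ASNS differed by 0.09, the smallest of the 30. THBS1 was at 1203 and 1210 CPM, between E2 and E2+(2S,6S)-HNK.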

How the data were processed

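RNA was measured in 16 libraries of HMC3 cells, 2 per group, made from amplified cDNA with the Ovation v2 kit and read as pairs of 100 bases. The authors deposited raw counts for each gene and library. The authors aligned the pairs to hg19 with TopHat and Bowtie and counted them with featureCounts. The submitters' processing notes name TopHat2 2.0.14, Bowtie2 2.2.6 and featureCounts 1.4.6, and the paper's methods name other versions of both aligners. Whether counting used strand is not given in the sources used here. Of counts from 1 to 9, 65.8% were even, against 49.9% of counts of 500 or more, so the counts were also halved as an alternative.

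Analyses used R 4.3.3 with edgeR 4.0.16. Of 25370 genes, filterByExpr kept 16004. After TMM normalization, 1 quasi-likelihood model with 8 group means (8 residual degrees of freedom) gave every comparison, with Benjamini-Hochberg adjustment within each. CPM are counts per 1000000 of the TMM-scaled library size (of the unscaled total for genes not tested and for sums over marker lists), and 95% intervals are the t quantile times the standard error. Intervals and limits for 0 counts cover counting error only where they rest on 1 library. Alternatives were DESeq2 1.42.0, fits on the groups compared only, other filters, upper-quartile normalization, a replicate block, a loess correction (span 0.5) for GC content and exon length, and leaving out each library. Gene models were GENCODE on GRCh37, which has the chromosomes of hg19. By symbol 21539 genes were matched, another 1487 through a former symbol, which gave a GC content to 96.0% of the 16004. The test was checked on simulated counts.

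The comparison and the 41 gene lists were chosen with earlier results of these data known, and no set test was run. The genes named are the 15 largest rises and 15 largest falls among changed genes that averaged 5 CPM or more and whose groups did not overlap, 2 to 4 members with the smallest p in each list described, the genes the study names, and the 5 largest differences each way for the interaction and the drug comparisons. Some single genes that this rule picks are not reported here.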

Additional observations from a re-analysis of the deposited data

Results flagged for a closer look

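The response to (2S,6S)-HNK differed between cells with and without E2 by the edgeR interaction test in 1714 genes. Genes named in the report were marked for a closer look where this difference was called. After the GC correction 285 genes were called, and the part of library composition in the values below was not tested.

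Among the genes with the largest response under E2, the interaction (effect with E2 minus effect without, log2) was -1.11 for KCNAB2, 1.07 for MIR100HG, -1.08 for CDK18, -1.16 for CRISPLD2, -1.01 for KRT80, -1.06 for SYNPO and -1.12 for SLC26A1. KCNAB2 and CDK18 rose in both settings and rose more without E2, while CRISPLD2, KRT80, SYNPO and SLC26A1 fell in both and fell more with E2. As counted 7 of the 30 largest responses had a called interaction, against 10.7% of all genes. The effect with E2, by which the 30 were chosen, is part of the interaction, so nothing is read from one share beside the other. With the GC correction these 7 kept their sign and came under the size limit, from 0.39 for MIR100HG to -0.85 for CRISPLD2. Another 1 of the 30 was called after the correction only, so the calls depend on the correction.

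Among interferon, JAK-STAT and cytokine genes it was -1.22 for MX1, -1.93 for MX2, -1.70 for OAS1, -1.06 for IRF7, 1.14 for JAK2, -1.13 for SOCS1 and -1.07 for LIF. After the correction MX1, MX2 and OAS1 stayed past the size limit, and JAK2 (0.31) and SOCS1 (-0.45) no longer passed. Among members of other lists it was 1.25 for NR1D2, 1.44 for RPS24, -1.22 for IGFBP4 and -1.14 for GPER1. RPS24 stayed past the limit at 1.17, and GPER1 (-0.48) no longer passed. The values for LEPR and P4HA1 were 1.16 and 1.53, and those for SLC30A9, SLC39A6 and SOCS5 were 1.32, 1.16 and 1.04, which came under the size limit after the correction, at 0.49, 0.52 and 0.37.

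The widest differences by the naming rule were 1.70 for LINC01111, 1.59 for CCDC58, 1.57 for PSMC6 and 1.54 for TWISTNB above 0, and -1.41 for ZNF469, -1.41 for CLIC3, -1.39 for GPRC5C, -1.37 for SNAI1 and -1.36 for CYGB below 0.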

How the results depend on the processing

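The 587 genes changed by (2S,6S)-HNK under E2 were 354 with at least 10 counts required in every library, and 529 to 557 with 1 library left out. For (2S,6S)-HNK against vehicle the 1453 genes were 775 after the GC correction and 770 with the replicate block added to it, and 1330 to 1550 with 1 library left out. The 1714 interactions were 285 and 284 in the same settings, and 1538 to 1917 with 1 library left out. Against E2+(2R,6R)-HNK the 106 genes were 66 with DESeq2, 35 with at least 10 counts in every library, 48 after the GC correction and 45 with the block added, and 94 to 135 with 1 library left out. Against E2+ketamine the 899 genes were 597 with the filter of 10 counts, and 806 to 932 with 1 library left out. The filter of 10 counts tests fewer genes; the cause of the other shifts was not tested. After the GC correction EEF2 reversed from -0.07 to 0.11, SLC30A6 from 0.21 to -0.014 and SOCS4 from 0.14 to -0.11, and with the replicate block as well they were at 0.11, -0.014 and -0.11. SLC30A6 is counted as reversed by its sign only, since it did not pass after the GC correction. Replicate numbers mark no shared source in the labels, and the replicate block alone gave 584 changed genes in place of 587 and moved no other count by over 1.5 times. Of 141 named genes tested, 130 kept their direction and side of the threshold after the GC correction, 5 no longer passed (JAK2, CCDC58, PSMC6, TWISTNB and SLC30A9), 3 now passed and 3 reversed, and 141 kept both with DESeq2. Left out 1 library at a time, 137 to 140 kept both. The medians of the 41 lists were less stable: by more than the spread between replicates, 28 moved with upper-quartile normalization, 22 with the GC correction, 11 with the filter of 10 counts, 7 with DESeq2 and 10 to 19 with 1 library left out. Genes with few counts, such as MX2 and OAS2, limit what the depth can show.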
